A study of Mus musculus with 4 samples.

Results

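The CC chemokine ligands are small secreted proteins that attract leukocytes, and 10 of their genes were followed here in mouse leukaemic cells: Ccl2, Ccl3, Ccl4, Ccl5, Ccl6, Ccl7, Ccl9, Ccl12, Ccl17 and Ccl22. They were taken by gene name from a table of 24497 mouse genes, and all 10 were present. The cells were AML cells of the NRAS/AE9a model, in which haematopoietic stem cells from bone marrow are made leukaemic with NRAS and with AE9a, a truncated AML1-ETO fusion. The compared groups were Tet2 KO, whose starting stem cells came from Tet2-/- mice, and WT, whose starting cells came from wild-type mice, with 2 libraries each. What both groups shared was culture in SCF, IL-3, IL-6, G418 and puromycin, transplantation into lethally irradiated CD45.1+ C57 B6.SJL recipients aged 6 to 8 weeks, and enrichment of CD45.2 cells from the recipients' spleens. How the Tet2-/- allele was made is not given, nor whether a group's libraries stem from different recipients or different leukaemias; p-values measure only how far these libraries vary, which may be technical. Recipient cells left after enrichment would be read together with the leukaemic ones. In such bulk RNA, fewer cells of a type and less RNA per cell cannot be told apart.

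CC chemokines bind receptors that couple to inhibitory G proteins and turn a cell's movement towards the source of the ligand. Ccl2, Ccl7 and Ccl12 act on Ccr2 and draw monocytes. Ccl3, Ccl4 and Ccl5 draw T cells, NK cells and monocytes, and Ccl3 and Ccl5 act on Ccr1. Tet2 is an enzyme that oxidises methylated cytosine in DNA and is often lost in human myeloid leukaemia. Ccl6 and Ccl9 are rodent ligands of Ccr1 made mostly by myeloid cells. Ccl17 and Ccl22 act on Ccr4 and are made by dendritic cells and macrophages, drawing regulatory and other T cells.

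The family takes its name from a pair of adjacent cysteines near the start of the mature protein, and the stretch of coding sequence around it is shown for 5 members, at least 1 from each functional group and the neighbouring genes Ccl6 and Ccl9. Each runs 5′ to 3′ on the coding strand and is taken from the GENCODE M21 transcript, on the build named for the files, mm10. Capitals mark the cysteine codons.
Ccl2: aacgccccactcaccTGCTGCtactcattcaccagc
Ccl4: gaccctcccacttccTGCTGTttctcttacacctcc
Ccl6: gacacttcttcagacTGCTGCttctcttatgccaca
Ccl9: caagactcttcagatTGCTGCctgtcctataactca
Ccl22: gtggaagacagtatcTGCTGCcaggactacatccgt
The first cysteine stood at codon 34 of Ccl2 and Ccl4, but at codon 50 of Ccl6 and codon 57 of Ccl9, which carry a longer stretch before it. Over whole coding sequences the most alike pair was Ccl6 and Ccl9, with 70.5% of aligned bases identical, followed by Ccl2 and Ccl12 with 69.7% and Ccl3 and Ccl4 with 69.6%. Ccl17 and Ccl22 were among the least alike, with 56.4%. No transcript of another gene held a stretch of at least 50 bases that was at least 90% identical to any member except Ccl9, whose 3006-base transcript shares such a stretch, of up to 195 bases, with transcripts of 1616 other genes, so reads from there could be split between genes.

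Values are TPM, length-scaled shares of all transcripts in a library, which can be compared between genes. Depth is not stated in such values; estimated from the spacing of low values it was approximately 22.7 and 23.7 M reads in the Tet2 KO libraries and 20.6 and 18.8 M reads in WT. The WT libraries differed by little more than read sampling, with a robust variance 1.11 times that of sampling over 1968 genes, against 5.66 times over 2094 genes between the Tet2 KO libraries. The mean of the WT pair was used as a single sample beside the 2 Tet2 KO libraries. ERCC spike-in RNAs took 2.95% and 3.19% of TPM in Tet2 KO and 4.66% and 4.62% in WT, and scaling to them moved the median change of all genes by 0.551 on the log2 scale. Tet2 itself was at 63.7 and 68.1 TPM in Tet2 KO and 43.5 and 43.7 TPM in WT; a whole-gene value does not show a deleted exon, so directions rest on the labels.

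The comparison asked how CC ligand transcripts of leukaemic cells from Tet2 knockout stem cells differ from those of wild-type origin. In the libraries labelled Tet2 KO, 7 of the 10 ligands fell, from Ccl22 with a 238-fold lower level to Ccl3 with a 2.81-fold lower one. Ccl2 and Ccl7 did not pass the test, and Ccl6, the single member with a higher level, did not pass either. Across the 11919 genes tested, 26.7% were lower by the same rule, 22.1% higher and 48.8% either, and 45.2% of the calls were higher, or 76.8% with ERCC scaling. The median log2 change of the 10 members was -2.16, beside -0.12 for all genes tested, and with ERCC scaling -1.65 beside 0.43. All 10 members passed the filter of 1 TPM in at least 2 libraries, Ccl12 only through WT. The Tet2 KO and WT libraries did not overlap for 9 members, 8 lower and 1 higher, but this held for 87.0% of all tested genes, with 48.7% lower and 38.4% higher. The test was limma on log2(TPM + 1), with Benjamini-Hochberg adjusted p over all tested genes, and on this scale the change of low genes is understated. Without the filter on low values, only Ccl9 passed.

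**Figure D1:**
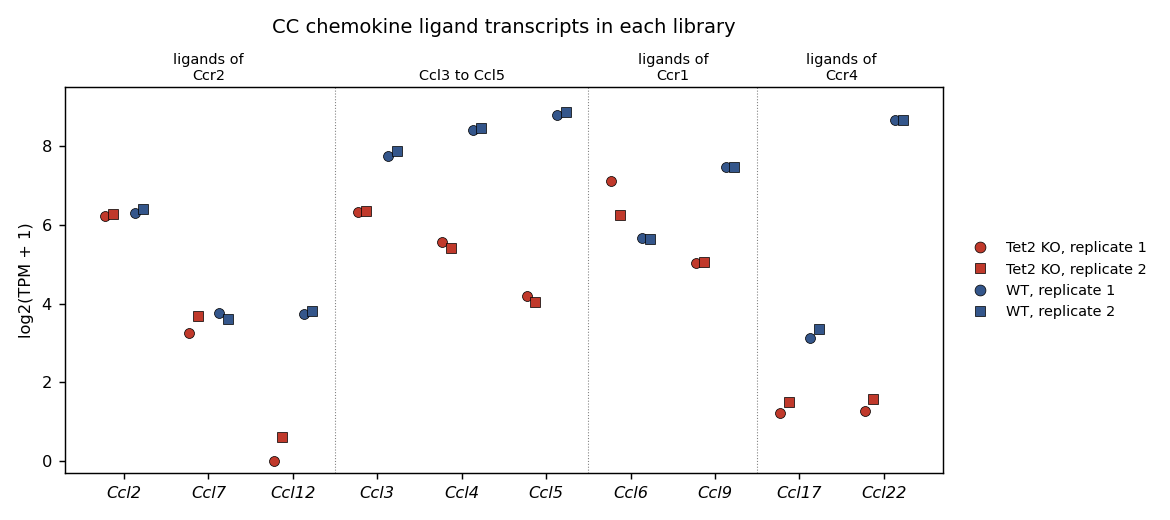
Level of each CC ligand as log2(TPM + 1) in the Tet2 KO libraries (red) and the WT libraries (blue), grouped by function; each point is a library. Ccl22 has the widest gap, with 1.41 and 2.01 TPM in Tet2 KO against 409 and 406 TPM in WT, while the Ccl7 points overlap and those of Ccl6 are higher in Tet2 KO.

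**Figure D2:**
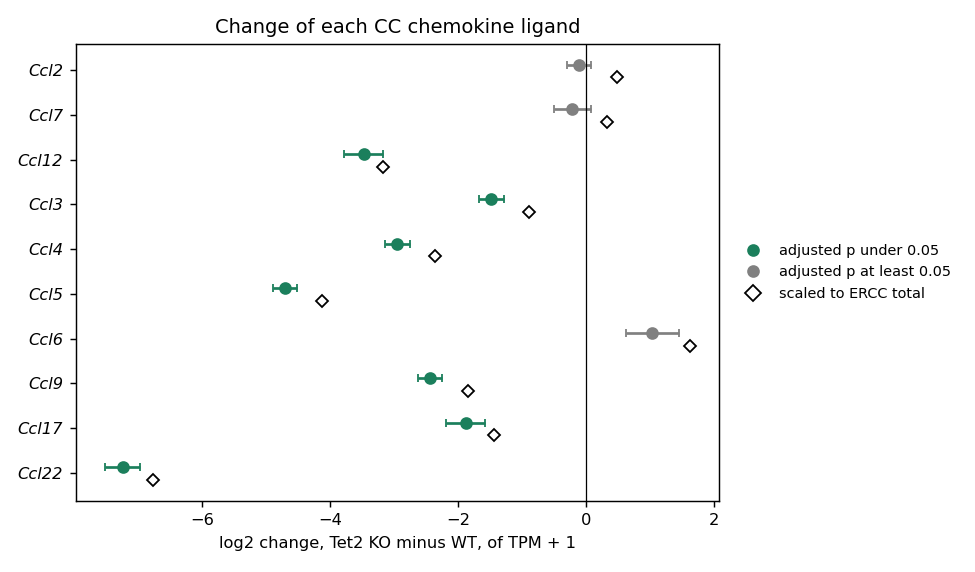
Log2 change of each CC ligand, Tet2 KO minus WT, on the TPM + 1 scale; circles are limma estimates with their SE, green where the adjusted p is under 0.05, and diamonds the same with libraries scaled to their ERCC total. The 7 green points lie between -7.24 and -1.48, and ERCC scaling moves Ccl2 and Ccl7 to the other side of 0.

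Ccl3, Ccl4 and Ccl5 together made up the largest share of CC ligand transcripts in WT, and all 3 fell in Tet2 KO. Ccl5, also known as RANTES, which attracts T cells and monocytes, was at 17.3 and 15.6 TPM in Tet2 KO, against 440 and 469 TPM in WT. The groups lay far apart, with each pair of libraries close together. Ccl5 was 27.6-fold lower in Tet2 KO, a log2 change of -4.71 ± 0.19 (SE; limma adjusted p = 1.85e-11). T cells and NK cells also make Ccl5, and their defining markers were low in every library. The 11 T cell markers in the table, of 14 listed, with 4 tested, 0 higher and 1 lower, summed to 5.15 and 11.5 TPM in Tet2 KO and 9.48 and 8.52 TPM in WT. The 10 NK cell markers, with 3 tested, 1 higher and 2 lower, summed to 4.47 and 6.73 TPM in Tet2 KO and 17.6 and 15.3 TPM in WT. Cd3d, Cd3e and Cd3g, chains of the T cell receptor complex, did not exceed 2.01 TPM in any library, and Ncr1, Klrb1c and Eomes of NK cells did not exceed 0.74 TPM, with Ncr1 listed at 0 in all 4. What part T cells or NK cells had in the fall of Ccl5 was not tested.

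Ccl4, or MIP-1 beta, was at 46.6 and 41.4 TPM in Tet2 KO and at 343 and 351 TPM in WT. It was 7.88-fold lower in Tet2 KO (log2 change -2.95 ± 0.20, SE; limma adjusted p = 5.63e-09). Ccl3, or MIP-1 alpha, which lies 13.2 kb from Ccl4 on the opposite strand, was at 79.4 and 81.2 TPM in Tet2 KO and at 217 and 235 TPM in WT. Its fall was smaller, 2.81-fold, with a log2 change of -1.48 ± 0.20 (SE; limma adjusted p = 1.51e-05). The order of the neighbours thus turned: Ccl3 stood at 1.70 and 1.96 times the level of Ccl4 in the Tet2 KO libraries and at 0.631 and 0.670 times in WT. Such a ratio within a library does not depend on how libraries are scaled. Ccl5 over Ccl4 was 0.371 and 0.376 in Tet2 KO and 1.28 and 1.34 in WT, and within this group the fold was smallest for Ccl3 and largest for Ccl5.

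Both Ccr4 ligands fell to 2.01 TPM or less in Tet2 KO. Ccl22, a chemokine of macrophages and mature dendritic cells, was at 1.41 and 2.01 TPM in Tet2 KO and at 409 and 406 TPM in WT. Its Tet2 KO level was 0.420% of that in WT, and the change was -7.24 ± 0.27 on the log2 scale (SE; limma adjusted p = 9.40e-12). Of all genes tested, 5 had a larger fall. Ccl17, which shares its receptor with Ccl22 and lies 58.8 kb from it on chromosome 8, was low throughout, at 1.34 and 1.82 TPM in Tet2 KO and 7.74 and 9.25 TPM in WT. These values stand on approximately 5.16 and 7.38 reads in Tet2 KO and 26.8 and 29.2 reads in WT. Its log2 change was -1.89 ± 0.30 (SE; limma adjusted p = 9.43e-05), a 5.38-fold lower level. Ccl22 exceeded Ccl17 by 1.05 and 1.10 times in Tet2 KO, against 52.9 and 43.9 times in WT.

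Markers of mature dendritic cells moved with these ligands: 12 of 16 were lower and 0 higher, with 13 tested, the receptor Ccr7 among them. Of all tested genes 26.7% were lower and 22.1% higher. Their summed level was 176 and 189 TPM in Tet2 KO and 1315 and 1329 TPM in WT. None of the defining markers was at 0. Itgax, which encodes CD11c, was at 55.7 and 34.5 TPM in Tet2 KO and 79.4 and 80.4 TPM in WT. The dendritic cell factor Zbtb46 was at 0.91 and 2.17 TPM in Tet2 KO and 7.62 and 7.32 TPM in WT, and passed the filter only through WT. Flt3 was at 2.63 and 2.45 TPM in Tet2 KO and 71.0 and 69.3 TPM in WT. The part of such cells in the fall of Ccl22 and Ccl17 was not tested.

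The promoters of Ccl22 and Ccl17 are shown because these members fell together while differing in level. Each holds 250 bases before and 50 after the RefSeq start of the gene (GRCm38.p6, the assembly of mm10, plus strand), at chr8:94745434-94745733 for Ccl22 and chr8:94810203-94810502 for Ccl17. Capitals mark letters that match a searched motif.
Ccl22: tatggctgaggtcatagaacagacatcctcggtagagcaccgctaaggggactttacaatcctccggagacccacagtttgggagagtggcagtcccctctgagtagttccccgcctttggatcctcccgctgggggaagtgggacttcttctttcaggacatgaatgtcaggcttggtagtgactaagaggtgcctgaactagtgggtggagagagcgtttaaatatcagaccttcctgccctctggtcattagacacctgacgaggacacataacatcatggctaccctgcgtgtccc
Ccl17: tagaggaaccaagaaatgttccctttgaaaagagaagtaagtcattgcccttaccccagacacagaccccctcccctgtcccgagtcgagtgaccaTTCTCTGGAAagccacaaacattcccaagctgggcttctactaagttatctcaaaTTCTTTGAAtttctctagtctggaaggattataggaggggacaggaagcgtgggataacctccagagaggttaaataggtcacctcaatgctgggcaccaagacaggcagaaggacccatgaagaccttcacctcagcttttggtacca
In the Ccl17 window the capitals are a STAT6-like match (TTC, any 4 bases, GAA) at base 97 and a GAS-like match, a STAT core (TTC, any 3 bases, GAA), at base 152; these motifs occur in 6.95% and 8.30% of the 32851 promoters in the same table. The Ccl22 window held none of the 9 motifs. Promoters of 6 members, Ccl3, Ccl6, Ccl9, Ccl12, Ccl17 and Ccl22, were at hand and were searched on both strands. Those of Ccl2, Ccl4, Ccl5 and Ccl7 were not searched, so the counts do not cover these members. Of the 6, 0 held an interferon response element core (GAAA, any 2 bases, GAAA), found in 3.44% of all promoters. An NF-kB core (GGG, any 2 bases, TTTCC) was in 1 of the 6, that of Ccl9, and in 1.63% of all. A second NF-kB form (GGGA, any base, TT, any base, CC), which can overlap the first, was in 0 of the 6 and in 1.20% of all. A C/EBP-like core (TTGC, any 2 bases, AA) and a PU.1-like core (GAGGAA followed by GT) were in 0 of the 6, beside 10.8% and 3.20% of all promoters.

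The Ccr2 ligands split. Ccl2, or MCP-1, the main monocyte attractant, was at 73.9 and 76.6 TPM in Tet2 KO and 78.6 and 83.7 TPM in WT. Its log2 change of -0.11 ± 0.19 did not pass (SE; limma adjusted p = 0.660), and with ERCC scaling it was 0.48 (limma adjusted p = 0.0558). Gm17268, on the opposite strand, overlaps Ccl2 and had no entry of that name among the genes read. The kit was stranded, but the sources do not state whether counting used strand. Whether reads of Ccl2 and Gm17268 were kept apart is therefore not known. Ccl7, or MCP-3, was at 8.52 and 11.8 TPM in Tet2 KO and 12.5 and 11.2 TPM in WT, and the groups overlapped. Its change of -0.22 ± 0.29 did not pass (SE; limma adjusted p = 0.567); it was 0.33 with ERCC scaling, and it was called lower, at -0.43, without Tet2 KO replicate 2, where the spread comes from the WT pair alone and the p-value is too small. Ccl12, or MCP-5, was listed at 0 and 0.52 TPM in Tet2 KO, the second value standing on approximately 2.26 reads, against 12.3 and 13.1 TPM in WT, approximately 45.8 and 44.5 reads. Its log2 change of -3.48 ± 0.31 passed (SE; limma adjusted p = 3.55e-07), but not with a pseudocount of 0.1 (limma adjusted p = 0.0768). Relative to Ccl2, Ccl12 was at 0 and 0.00679 in Tet2 KO and 0.157 in each WT library, while Ccl7 was at 0.115 and 0.154 in Tet2 KO and 0.159 and 0.133 in WT.

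Of Ccl9 and Ccl6, neighbours 9.25 kb apart on the same strand of chromosome 11 and the most alike in coding sequence, Ccl9 fell and Ccl6 did not pass the test. Ccl9, or MIP-1 gamma, was at 31.8 and 32.2 TPM in Tet2 KO and 178 and 177 TPM in WT. It fell by 2.44 ± 0.19 on the log2 scale (SE; limma adjusted p = 3.02e-08) and was 5.55-fold lower. It was the member that passed under all 13 alternatives. Ccl6 was at 137 and 75.5 TPM in Tet2 KO and 49.7 and 48.7 TPM in WT. Both Tet2 KO values were above both WT values, but the Tet2 KO libraries differed 1.82-fold from each other. The log2 change of 1.03 ± 0.41 did not pass (SE; limma adjusted p = 0.117). With ERCC scaling it was 1.62 and passed (limma adjusted p = 0.0352), as it did with both WT libraries as samples (limma adjusted p = 0.0315). The latter fit takes a WT pair that differs by little more than read sampling as separate samples, so its p-value may be too small. Its change was 0.61 without Tet2 KO replicate 1 and 1.46 without replicate 2; limma called both, but there the spread comes from the WT pair alone, so those p-values are too small and are not given. Ccl6 over Ccl9 was 4.32 and 2.34 in Tet2 KO and 0.279 and 0.275 in WT. The antisense transcript E230016K23Rik, which overlaps Ccl6, did not exceed 0.36 TPM.

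The promoters of this pair are shown because they share a stretch at the start of transcription. Windows are again 250 bases before to 50 after the RefSeq start (GRCm38.p6, minus strand, written in the direction of the gene), at chr11:83593038-83593337 for Ccl6 and chr11:83578587-83578886 for Ccl9. Capitals mark the shared stretch.
Ccl6: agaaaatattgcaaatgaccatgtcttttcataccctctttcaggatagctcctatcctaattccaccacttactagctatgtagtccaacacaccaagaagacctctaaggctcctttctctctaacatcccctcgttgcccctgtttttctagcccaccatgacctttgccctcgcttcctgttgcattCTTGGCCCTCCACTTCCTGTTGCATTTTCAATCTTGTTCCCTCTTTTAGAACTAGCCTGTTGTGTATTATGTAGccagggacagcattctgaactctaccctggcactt
Ccl9: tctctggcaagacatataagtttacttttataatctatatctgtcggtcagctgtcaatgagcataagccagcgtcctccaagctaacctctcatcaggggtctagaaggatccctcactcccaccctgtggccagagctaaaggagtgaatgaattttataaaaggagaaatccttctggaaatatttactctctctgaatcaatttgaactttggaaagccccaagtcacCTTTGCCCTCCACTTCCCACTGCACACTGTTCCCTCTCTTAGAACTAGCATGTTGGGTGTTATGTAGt
In the shared stretch 88.1% of 67 aligned bases were identical, and it spans bases 192 to 265 of the Ccl6 window and 233 to 299 of the Ccl9 window. No other pair of the 6 member promoters aligned over more than 19 bases. Upstream of it the Ccl9 window held a string match to the TATA box (TATAAA), on the gene's strand at base 159. This string was in 2 of the 6 member promoters, those of Ccl9 and Ccl12, and in 13.6% of all promoters. The Ccl9 window also held an AP-1 site (TGA, any base, TCA, in 7.81%) at base 198, and its NF-kB match began at base 216. The Ccl6 window held none of the 9 motifs.

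Summed over the 10 ligands, CC ligand transcripts came to 397 and 339 TPM in Tet2 KO, against 1747 and 1804 TPM in WT, a 4.83-fold lower total. On the log2 scale the total differed by -2.28, or -1.68 with ERCC scaling; an exact permutation test of 2 libraries against 2 cannot go below p = 0.333, and no other test of the sum was run. The make-up changed with the total. Ccl5, Ccl22 and Ccl4 led in each WT library, with 25.2% and 26.0%, 23.4% and 22.5%, and 19.6% and 19.4% of the sum. In Tet2 KO the leading ligands were Ccl6, with 34.5% and 22.3%, Ccl3, with 19.98% and 24.0%, and Ccl2, with 18.6% and 22.6%. Their order differed between the Tet2 KO libraries, where Ccl6 ranked 1 in replicate 1 and 3 in replicate 2, so Ccl6 does not differ from Ccl3 or Ccl2 beyond its spread, while Ccl3 exceeded Ccl2 in each. Below them came Ccl4, Ccl9, Ccl5 and Ccl7, in this order in both Tet2 KO libraries, then Ccl22 and Ccl17, whose values overlapped, and Ccl12. In WT, Ccl3, Ccl9, Ccl2 and Ccl6 followed the leading ligands, then Ccl12 and Ccl7, whose values overlapped, and Ccl17. Ccl2 held 4.50% and 4.64% in WT, at close to the same level in TPM. By group, the Ccr4 ligands took 0.692% and 1.13% of the sum in Tet2 KO, against 23.9% and 23.0% in WT. The Ccr2 ligands took 20.7% and 26.2% in Tet2 KO and 5.92% and 5.98% in WT. Ccl6 and Ccl9 together took 42.5% and 31.8% in Tet2 KO and 13.025% and 12.5% in WT. Together Ccl3, Ccl4 and Ccl5 took 36.1% and 40.8% in Tet2 KO and 57.2% and 58.5% in WT.

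**Figure D3:**
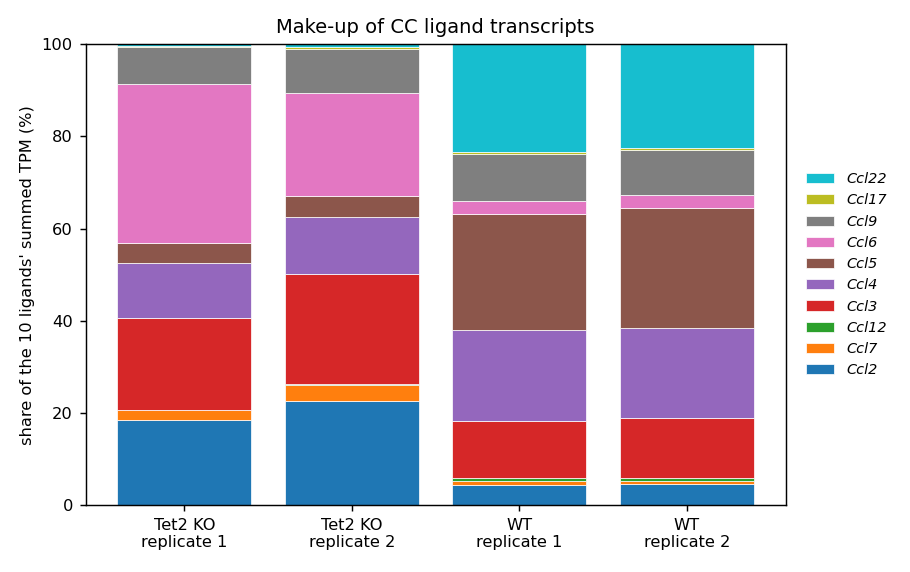
Share of the 10 ligands' summed TPM held by each ligand, in percent, for the Tet2 KO libraries (left) and the WT libraries (right). Ccl5 and Ccl22 fill 25.2% and 23.4% of the bar of WT replicate 1, while Ccl6, Ccl3 and Ccl2 fill most of the Tet2 KO bars.

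In the genome the members sit in 3 groups (mm10, GENCODE M21). Ccl2, Ccl7 and Ccl12 span chromosome 11, 82035571 to 82103400, and all lie on the plus strand. Ccl5, Ccl9, Ccl6, Ccl3 and Ccl4 span 83525778 to 83664683, 1422 kb further on. Ccl22 and Ccl17 lie on chromosome 8, from 94745590 to 94812036. Within the groups Ccl12 fell while Ccl2 and Ccl7 did not pass, and Ccl9 fell while Ccl6 did not pass. Of 13 genes listed as lying on the same chromosomes around the ligands, 9 were tested, of which 5 were called lower and 1 higher. Over all tested genes these shares were 26.7% and 22.1%. The list reaches beyond direct neighbours. Slfn5, among the 5 with a log2 change of -6.08, lies 561 kb from Ccl5, the member nearest to it. Of the 5, Cx3cl1 and Heatr9 passed the filter only through WT. Cx3cl1, the ligand of Cx3cr1, lies between Ccl22 and Ccl17 and was at 0.66 and 1.36 TPM in Tet2 KO and 210 and 214 TPM in WT, a log2 change of -6.75. On the far side of Ccl17, Ciapin1 and Coq9 did not pass, with log2 changes of 0.019 and -0.055. Heatr9, 3.60 kb from Ccl5 on the same strand, was at 0.05 and 0.19 TPM in Tet2 KO and 7.95 and 8.41 TPM in WT, a log2 change of -3.04. Wfdc21, 82.3 kb beyond Ccl4, rose to 267 and 299 TPM in Tet2 KO, against 10.3 and 9.64 TPM in WT.

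**Figure D4:**
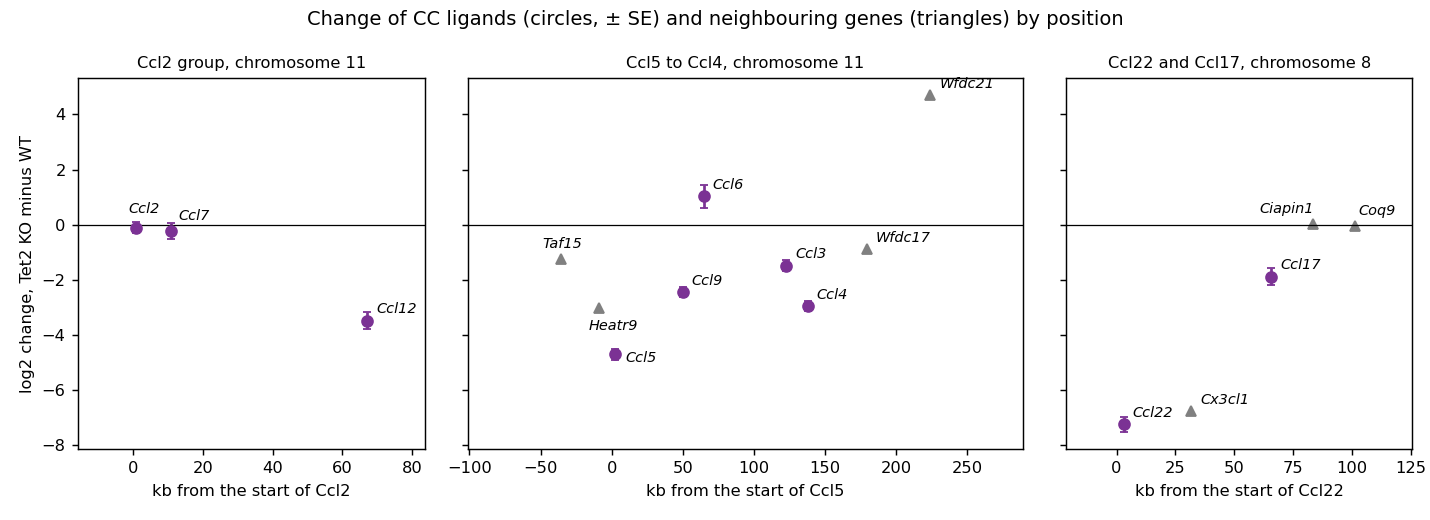
Log2 change, Tet2 KO minus WT, of CC ligands (circles, ± SE from limma) and neighbouring genes (triangles) against distance in kb from the start of the first ligand of each of the 3 genomic groups. In the middle panel Ccl6 stands above 0 at 1.03 between Ccl9 at -2.44 and Ccl3 at -1.48, and in the right panel Cx3cl1 at -6.75 lies between Ccl22 and Ccl17.

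Receptors for these ligands were read in the same libraries. Of 15 CC chemokine receptors listed, values are given here for 7. Ccr1, the receptor of Ccl3, Ccl5, Ccl6 and Ccl9, had the highest level of the 15, at 363 and 385 TPM in Tet2 KO and 282 and 284 TPM in WT, and did not pass, with a log2 change of 0.40 (limma adjusted p = 0.165). With ERCC scaling the change of Ccr1 was 0.998, and it was called higher under 5 of 13 alternatives. The 13 include fits that take both WT libraries as samples or leave out a Tet2 KO library, where p-values may be too small. Ccr2 was at 28.1 and 20.3 TPM in Tet2 KO and 114 and 118 TPM in WT, a log2 change of -2.23 ± 0.22 (SE; limma adjusted p = 1.41e-06), while the summed level of its ligands was 82.4 and 88.9 TPM in Tet2 KO and 103 and 108 TPM in WT. The atypical receptor Ccrl2 fell to 49.6 and 33.4 TPM in Tet2 KO, against 118 and 122 TPM in WT. Ccr7, the homing receptor for Ccl19 and Ccl21, was at 1.80 and 2.54 TPM in Tet2 KO and 267 and 272 TPM in WT, a log2 change of -6.43 ± 0.28 (SE; limma adjusted p = 3.66e-11). Ccr4, the receptor of Ccl17 and Ccl22, did not exceed 0.12 TPM in any library. Ccr10, at 0.37 and 0.20 TPM in Tet2 KO and 1.25 and 0.79 TPM in WT, and Ccr9, at 0.39 and 0.31 TPM in Tet2 KO and 0.78 and 1.19 TPM in WT, were too low to be tested.

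**Figure D5:**
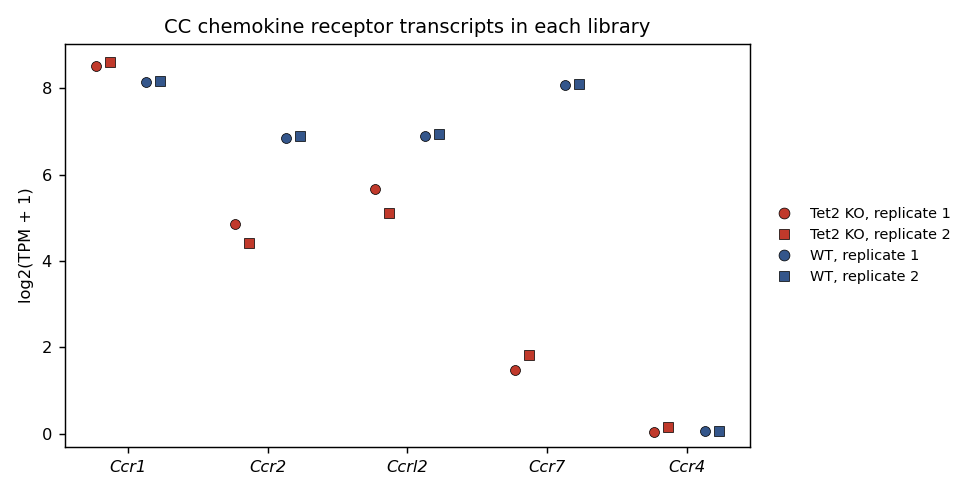
Level of 5 CC chemokine receptors as log2(TPM + 1) in the Tet2 KO libraries (red) and the WT libraries (blue); each point is a library. Ccr7 has the widest gap, with 1.80 and 2.54 TPM in Tet2 KO against 267 and 272 TPM in WT, and Ccr4 lies near 0 in all 4 libraries.

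Other CC ligands were scarce. Of 13 listed, 12 were in the table, 6 of them at 0 in every library, and 3 were tested. Ccl27a, a skin chemokine, was at 0.83 and 0.68 TPM in Tet2 KO and 1.13 and 2.43 TPM in WT; it passed the filter only through WT, and its call as lower was kept by 2 of the 12 alternatives that tested it. Ccl24 and Ccl25 did not pass.

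Genes known to drive CC ligand transcription, mainly NF-kB and interferon factors and inducing cytokines, were mostly lower in Tet2 KO. Of 20 listed 17 were tested, 14 fell and 0 rose, where 26.7% of all tested genes were lower and 22.1% higher. The median log2 change was -1.65 beside -0.12 for all genes, or -1.06 beside 0.43 with ERCC scaling. Among the 14, the interferon gene Ifnb1 passed the filter only through WT, at 0.25 and 0.23 TPM in Tet2 KO and 22.57 and 23.99 TPM in WT. Stat2 and Irf7, which carry interferon signals, were among those that fell. Stat2 was at 20.8 and 24.3 TPM in Tet2 KO and 294 and 296 TPM in WT. Irf7 was at 13.4 and 19.0 TPM in Tet2 KO and 425 and 419 TPM in WT. Stat6, which carries the IL-4 signal to Ccl17 and Ccl22, did not pass, at 273 and 233 TPM in Tet2 KO and 184 and 180 TPM in WT (limma adjusted p = 0.0942). Against the direction of the list, the log2 change of Stat6 was 0.47, or 1.06 with ERCC scaling. It was called higher by 5 of 13 alternatives, a count with the same limit as for Ccr1. Rela did not pass either (limma adjusted p = 0.405), and with ERCC scaling the fall of Rel, another NF-kB subunit, was lost at a log2 change of 0.0062. Whether the genes of this list had a part in the ligand changes was not tested.

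Markers of other cells that make or answer CC ligands also moved with the groups, where 22.1% of all tested genes were higher and 26.7% lower. Neutrophil markers were higher in 11 of 12 cases and summed to 107262 and 85950 TPM in Tet2 KO and 1677 and 1716 TPM in WT. Of 10 monocyte markers 5 were higher and 4 lower, with sums of 17270 and 19355 TPM in Tet2 KO and 2884 and 2902 TPM in WT. Among the defining monocyte genes none was called higher. Ly6c2 did not pass, at 1042 and 1099 TPM in Tet2 KO and 1006 and 1005 TPM in WT. Csf1r was lower, at 170 and 142 TPM in Tet2 KO and 721 and 730 TPM in WT. Ccr2 was also lower, at 28.1 and 20.3 TPM in Tet2 KO and 114 and 118 TPM in WT. The larger monocyte sum in Tet2 KO thus rests on other genes of the list. Of 12 tissue macrophage markers 9 were tested, 1 higher and 7 lower, with sums of 1464 and 1744 TPM in Tet2 KO and 3633 and 3642 TPM in WT. None of the defining macrophage genes was at 0, and they went in both directions. C1qa was lower, at 19.7 and 23.3 TPM in Tet2 KO and 163 and 160 TPM in WT. Adgre1 was lower too, at 48.5 and 35.5 TPM in Tet2 KO and 64.0 and 68.8 TPM in WT. Mertk was higher, at 2.78 and 3.36 TPM in Tet2 KO and 1.37 and 1.32 TPM in WT. Of 9 mast cell and basophil markers 6 were tested, 5 higher and 1 lower, with sums of 205 and 213 TPM in Tet2 KO and 78.8 and 75.4 TPM in WT. The 7 B cell markers in the table, of 9 listed, summed to 6.36 and 4.21 TPM in Tet2 KO and 9.5 and 8.44 TPM in WT. The 9 erythroid markers summed to 51.2 and 72.3 TPM in Tet2 KO and 12.3 and 10.7 TPM in WT, and the 8 stromal and endothelial ones to 80.5 and 77.7 TPM in Tet2 KO and 53.4 and 53.1 TPM in WT. The part of these cells in the ligand changes was not tested.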

How the data were processed

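RNA-seq of 4 libraries was read from a table deposited by the authors, whose values are TPM with each library summing to about 1000000 over 24589 entries, 92 of them ERCC spike-ins. Per the submitters' processing notes, STAR, RSEM and the mm10 build were used; no version and no annotation is given in the sources at hand. Per the labels, libraries came from a stranded mRNA kit. TPM keeps no depth; approximate reads were estimated from single-transcript genes of 600 to 2500 bases (length minus 200), where 74.1% to 76.8% of low values lay within 0.2 of a whole multiple of 1 read, and cover no sampling interval. Differences were tested with limma 3.58.1 (R 4.3.3, trend and robust moderation, two-sided, threshold 0.05) on log2(TPM + 1) for genes with at least 1 TPM in at least 2 libraries. The WT libraries entered as their mean, leaving 1 residual degree of freedom, so the WT sample is assumed to vary like the Tet2 KO libraries. The fit was also run on simulated data in which WT libraries varied less than Tet2 KO libraries. That run does not check this assumption, and its outcome is not reported here. The members, gene lists, motifs and tests were chosen with earlier results of these data known; genes other than members are named by list membership, the 3 smallest p per direction, or level for receptors, and otherwise after their values were seen; some genes that this rule names are not reported here. The 13 alternatives changed pseudocount, filter, scaling, variance model, samples or left out a library. Sequence comparisons used biopython 1.88 and blastn 2.17.0; promoter sequences come from RefSeq (GRCm38.p6), with 6 of 10 members matched by symbol.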

Additional observations from a re-analysis of the deposited data

How the results depend on the processing

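Of 7 ligands called lower, 7 passed under every alternative except no filter (1, Ccl9), a pseudocount of 0.1 (6, without Ccl12) and the fits that leave out a library (7 to 8). A call of 1 member as higher, Ccl6, came with ERCC scaling (1), with both WT libraries as samples (1), with the replicate block (1) and in the fits that leave out a library (0 to 1). Fits with both WT libraries as samples, with or without the block, take a pair close to read sampling as separate samples, so their p-values may be too small. ERCC scaling turned Ccl2 to 0.48 and Ccl7 to 0.33, neither past the threshold, and moved the summed change to -1.68; leaving out a library gave -2.39 to -2.16. Over all genes, 2629 were higher and 3182 lower; ERCC scaling gave 4942 and 1492, no filter 123 and 295, and leaving out a library 2651 to 4321 and 3192 to 5674, where leaving out a Tet2 KO library takes both WT libraries as samples, so that the spread comes from the WT pair alone and p-values are too small. No filter tests 18594 genes; why it ends calls was not tested. Same-numbered libraries did not deviate together (correlation -0.011 over genes), so numbers do not pair them; with the replicate block 3495 genes were higher and 4461 lower, against 3520 and 4517 without it. Members at few reads, Ccl12 and Ccl17, are limited by depth.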

Other observations

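Genes that carry the signal of chemokine receptors inside the cell moved in both directions. Of 26 listed all were tested, and 13 were higher and 7 lower in Tet2 KO, where 22.1% of all tested genes were higher and 26.7% lower. The median log2 change was 0.63 beside -0.12 for all genes tested, or 1.19 beside 0.43 with ERCC scaling. Plcb2, a phospholipase activated by G protein subunits, was at 153 and 101 TPM in Tet2 KO and 4.38 and 4.21 TPM in WT, a rise of 4.57 ± 0.25 (log2, SE; limma adjusted p = 1.06e-07). The GTPase gene Rac2 was at 429 and 341 TPM in Tet2 KO and 88.1 and 89.9 TPM in WT, and Rgs14, a regulator of G protein signalling, at 73.3 and 75.7 TPM in Tet2 KO and 21.6 and 24.1 TPM in WT. The receptor kinase gene Grk3 fell to 5.78 and 4.64 TPM in Tet2 KO, against 81.7 and 82.4 TPM in WT. Pik3r5, the regulatory subunit of the phosphoinositide kinase that chemokine receptors engage, was at 93.7 and 99.7 TPM in Tet2 KO and 276 and 280 TPM in WT, and Plcb3 at 11.6 and 15.02 TPM in Tet2 KO and 33.1 and 34.0 TPM in WT. The 6 genes that did not pass include Gnb1, Rac1, Prex1, Arrb1 and Arrb2. Gng2 and Dock2 were lower at log2 changes of -0.62 and -0.48, but stood at -0.033 and 0.11 with ERCC scaling.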
